A study of Arabidopsis thaliana with 12 samples.

Results

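Transcripts of the mitochondrial genome were measured by 23 of the 22746 probe sets tested, which carried the symbols of 16 genes. A probe set is a group of short oligonucleotides on the array that reads 1 target. Members were the probe sets whose single gene symbol in the ATH1 annotation began with lower-case nad, cox, ccb or orf, or was cob, matR, mttB or a mitochondrial atp gene. By symbol or synonym, 16 of the 16 genes matched genes of the mitochondrial chromosome in the RefSeq table. Complex I had 15 probe sets for 8 nad genes, complex IV had 2 for cox1 and cox2, and cytochrome c maturation had 4 for 4 ccb genes. The intron maturase gene matR had 1, and the only member named as an open reading frame, orfX, had 1. RefSeq lists orfX as a synonym of mttB, so a set of unassigned open reading frames could not be compared with the respiratory genes. No member named cob, cox3 or an atp gene alone. A further 6 probe sets named a gene of the rule together with another gene, and they are not members.

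The samples came from the aerial parts of seedlings of Arabidopsis thaliana at an age of 2 weeks, grown on Murashige and Skoog agar, and hybridised to 12 Affymetrix ATH1 arrays. There were 4 groups of 3 arrays. Mutant and wild type Col-0 seedlings were each sampled 1 h after a spray of trans-zeatin at 20 µM (tZ, which is a natural cytokinin). Other seedlings of both genotypes were sampled 1 h after a spray of 0.02% DMSO. The DMSO content of the tZ spray is not given. The labels give the mutant as SALK_098604, SALK_054752, which are insertion lines in the cytokinin response regulator genes ARR10 and ARR12. Whether both insertions were in 1 plant and whether plants were pooled is not stated. Nothing says that replicate arrays stem from separate cultures, so the p-values cover only the spread between arrays and that spread may be technical.

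Plant mitochondria keep a small genome that encodes a few membrane subunits of the respiratory chain, while most subunits come from nuclear genes. The nad genes encode subunits of complex I, which oxidises NADH. The cox genes encode the catalytic core of complex IV, which reduces oxygen. The ccb genes encode proteins of cytochrome c maturation, the pathway in which haem is attached to cytochrome c. Several nad transcripts are assembled from separately transcribed pieces by trans-splicing of group II introns, and many plant mitochondrial messages are edited from C to U. In plant mitochondria a poly(A) tail marks a transcript for decay. The nuclear genome of Arabidopsis carries a large insertion of mitochondrial DNA on chromosome 2, so a probe set can match both copies.

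Signals are MAS5 values, an intensity on a linear scale, with a lowest 2% trimmed mean of any array of 100.01 and array medians from 33.8 to 35.7. In 27 probe sets for bacterial transcripts not expected in the plants, the median signal was 0.900 and the highest 11.2, and this highest value is used below as the absent-control maximum. Control ratios of 5' to 3' signal, which fall when labelled RNA does not extend to the 5' end, separated the treatments. The actin ratio was 0.285 ± 0.0251 on tZ arrays and 0.0501 ± 0.00637 on DMSO arrays (SD, n = 6 each, two-sided exact permutation p = 0.0022, which is the lowest possible here). GAPDH gave 0.768 ± 0.0584 with tZ and 0.258 ± 0.0232 with DMSO, at the same exact permutation p of 0.0022. The signal of the cre spike-in, a control from outside the plant, also separated the treatments. It was 3047 ± 41.2 with tZ and 4678 ± 171 with DMSO (SD, n = 6 each, exact permutation p = 0.0022). This array division coincides with the treatment, so in every tZ against DMSO value below the spray and the array set cannot be told apart. Comparisons of genotypes lie within 1 side of it. Of 6 leaf markers 2 could be read by symbol, LHCB4.1 with group means from 4720 to 5244 and PORB from 1372 to 1616. Of 6 root markers 1 could be read, PYK10, so a root marker was not at 0 in tissue labelled aerial. It averaged 631 ± 124 with tZ and 1129 ± 202 with DMSO in the mutant, and 520 ± 44.1 with tZ and 837 ± 238 with DMSO in wild type (SD, n = 3). The treatments did not overlap in either genotype, the genotypes overlapped under both sprays with higher means in the mutant, and the part of this marker in the results was not tested.

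Many mitochondrial probe sets lay near the level of absent transcripts. Group means lay above the absent-control maximum in at least 1 group for 17 of 23 members and in all 4 groups for 11, and 8 members exceeded it on every array. The 6 that stayed below it in all groups were ccb203, matR, nad2, nad7 and 2 of the 7 nad1 probe sets. For the 15 complex I members group means ran from 1.91 to 226, for cytochrome c maturation from 3.23 to 109, and for complex IV from 7.72 to 110. The matR means ran from 0.461 to 1.98, and those of orfX from 27.3 to 41.7. Levels of different probe sets are not comparable with each other. Of the members 5 had probe set identifiers ending in _s_at, which marks probe sets that can match several transcripts.

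With tZ, mitochondrial transcripts moved in both directions. Signals of nad4 and cox1 were higher and those of nad4L, 1 nad5 probe set and 2 nad1 probe sets were lower, in both genotypes. In the mutant, 9 of 23 members passed, 2 higher and 7 lower (limma, adjusted p of 0.05 over all probe sets tested), against 42.8% of all probe sets, 17.9% higher and 24.9% lower. In wild type 9 passed, 4 higher and 5 lower, against 43.6% of all probe sets, 18.2% higher and 25.4% lower. The share of members that passed was 39.1% in each genotype, near the background, so the number of calls does not set these genes apart. In bulk tissue, fewer cells of a type and less RNA per cell cannot be told apart. The plot of log2 changes shows all 23.

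**Figure D1:**
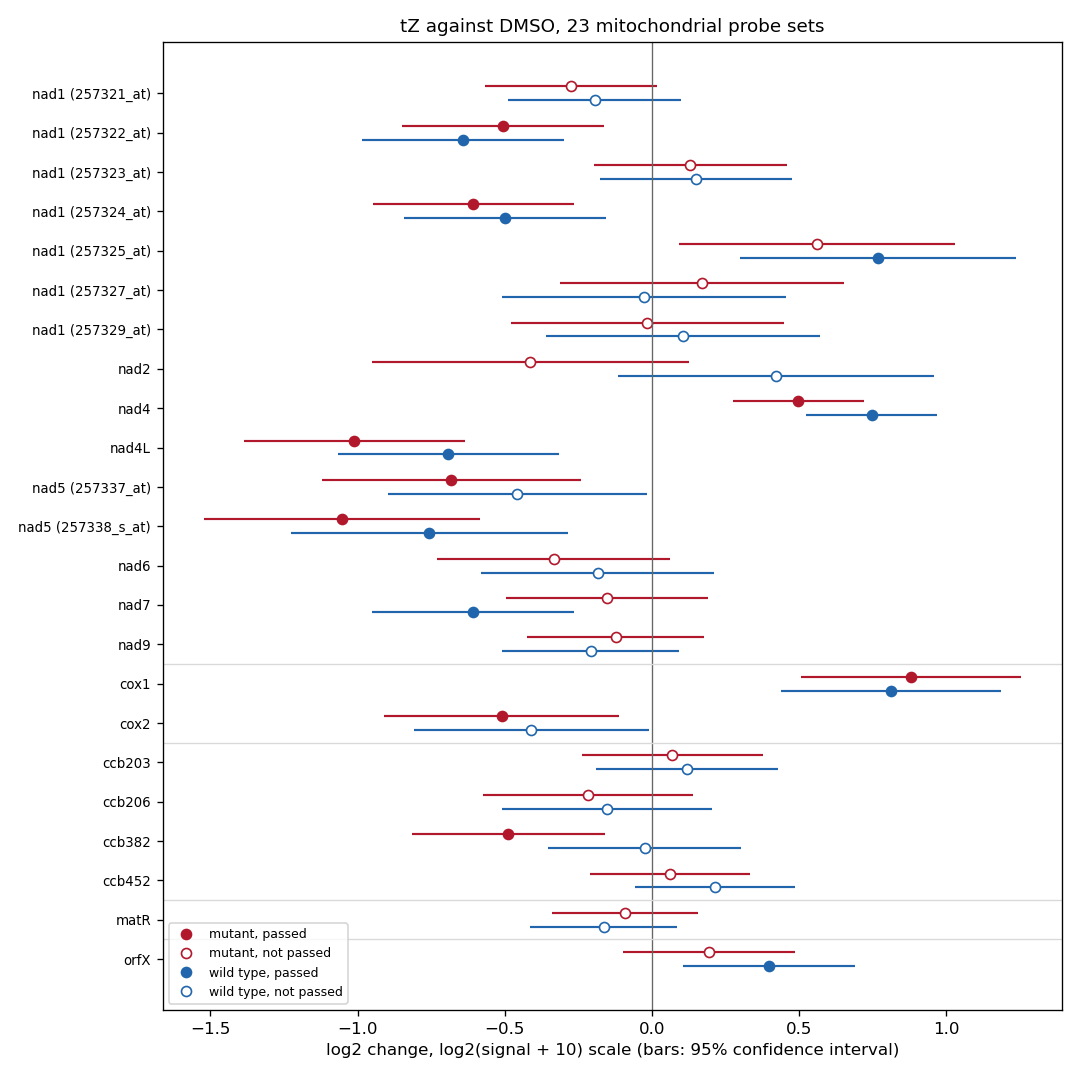
Change with tZ relative to DMSO for each of the 23 mitochondrial probe sets (rows, grouped by complex), as the log2 change on the log2(signal + 10) scale with its 95% confidence interval from limma, in the mutant (red, upper) and in wild type (blue, lower). Filled points passed at an adjusted p of 0.05. Both nad4 and cox1 lie right of 0 in both genotypes, and nad4L, both nad5 and 2 nad1 probe sets lie left of it.

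The nad4 gene encodes a proton-pumping membrane subunit of complex I. Its signal was 243, 198 and 236 on the mutant tZ arrays, against 164, 154 and 151 on the mutant DMSO arrays. The wild type signal was 182, 226 and 196 with tZ, against 101, 128 and 119 with DMSO. Every tZ array lay above every DMSO array of either genotype. The log2 change was 0.50 in the mutant (SE 0.10, limma adjusted p = 0.0012) and 0.75 in wild type (SE 0.10, adjusted p = 3.7e-05).

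The small complex I subunit gene nad4L moved the other way. On the mutant arrays it read 6.68, 7.43 and 11.3 with tZ, against 19.5, 34.3 and 28.8 with DMSO. On the wild type arrays it read 10.7, 12.1 and 13.6 with tZ, against 24.2, 21.3 and 32.5 with DMSO. The treatments did not overlap in either genotype, and the tZ signals lay near the absent-control maximum, so the size of the fall is not measured exactly. The log2 change was -1.01 in the mutant (SE 0.17, limma adjusted p = 2.7e-04) and -0.69 in wild type (SE 0.17, adjusted p = 0.0049).

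Another proton-pumping subunit of complex I is encoded by nad5, which had 2 probe sets. That ending in _s_at read 14.0, 10.4 and 6.80 on the mutant tZ arrays, against 21.6, 46.1 and 31.5 on the mutant DMSO arrays. The wild type arrays read 11.9, 7.10 and 16.5 with tZ, against 24.5, 24.0 and 30.7 with DMSO. All DMSO arrays lay above all tZ arrays, with log2 changes of -1.05 in the mutant (SE 0.22, limma adjusted p = 0.0012) and -0.76 in wild type (SE 0.22, adjusted p = 0.011). Leaving out replicate 2 of wild type tZ ended the wild type call (adjusted p = 0.060, the highest of all alternatives, the lowest being 0.0045). Signals of the other nad5 probe set were 4.71, 10.3 and 4.90 on the mutant tZ arrays, against 16.7, 17.0 and 15.5 on the mutant DMSO arrays. It passed there (log2 change -0.68, SE 0.20, limma adjusted p = 0.014), a call lost without mutant tZ replicate 1 or 3 and with a pseudocount of 1 (adjusted p up to 0.070, range from 0.0059). In wild type it had 0.757, 6.21 and 5.17 with tZ, against 12.3, 4.19 and 11.6 with DMSO, with overlap, and did not pass (log2 change -0.46, adjusted p = 0.089). Without wild type DMSO replicate 2 it passed (adjusted p = 0.015). The tZ means of the _s_at probe set, 10.4 in the mutant and 11.8 in wild type, lay near the absent-control maximum. All tZ arrays of the other nad5 probe set lay below it, so the sizes of these falls are not measured exactly.

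**Figure D2:**
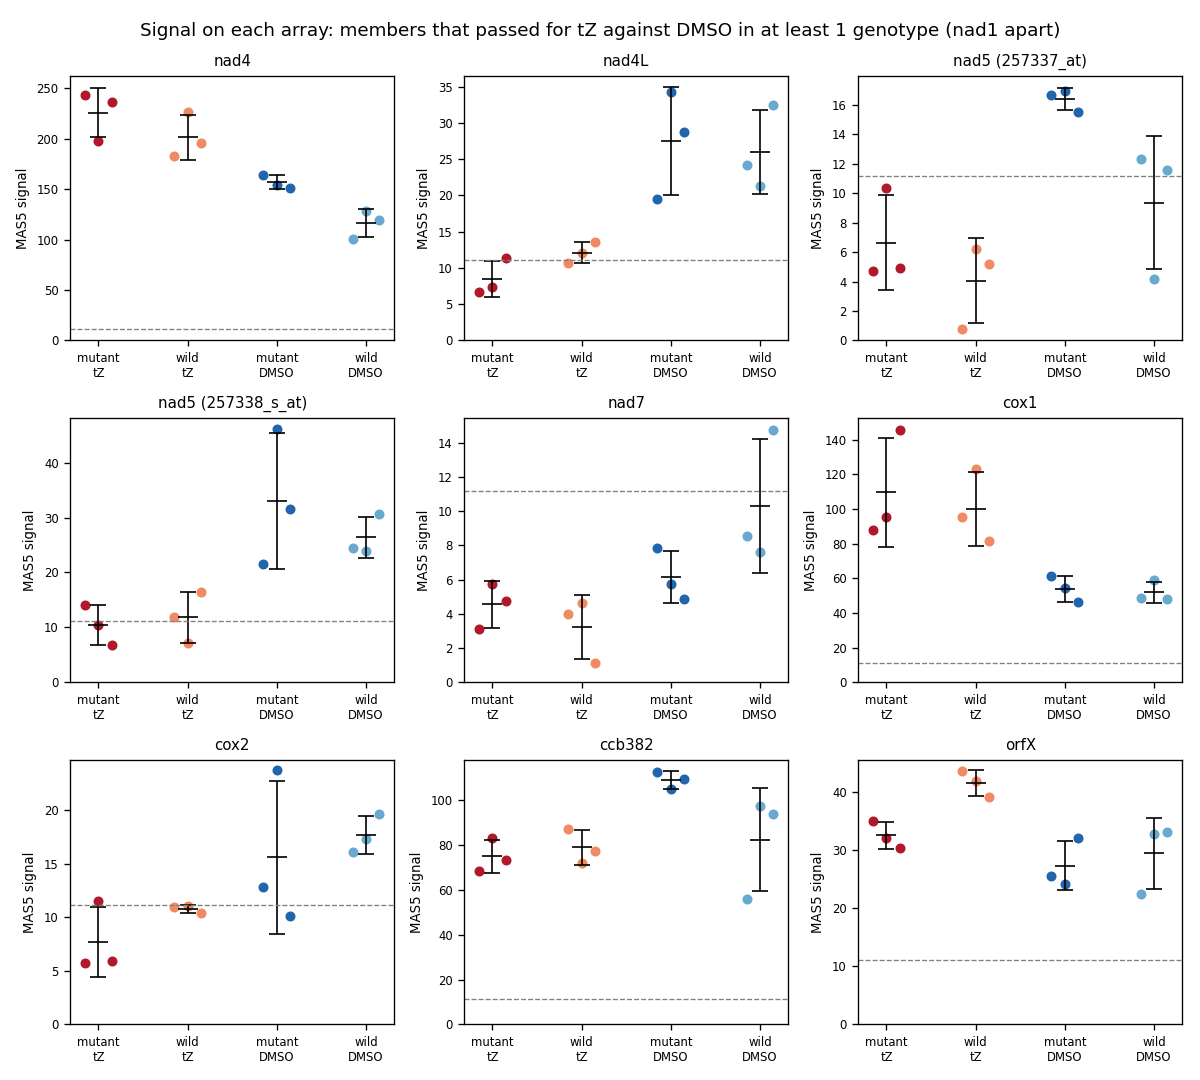
MAS5 signal (linear axis from 0) on each of the 12 arrays for the 9 members other than nad1 that passed for tZ against DMSO in at least 1 genotype. Points are arrays, black marks the mean with SD (n = 3), and the dashed line is the highest absent-control signal of 11.2. All tZ arrays of nad4 and cox1 lie above all DMSO arrays, while nad7 lies under the dashed line on all arrays but 1.

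The nad1 gene encodes the membrane subunit near the quinone site of complex I, and its message is assembled by trans-splicing. It had 7 probe sets, and the annotation does not say which piece of the transcript each one reads. Of these, 2 were lower with tZ in both genotypes, 1 was higher in wild type, and 4 passed in neither genotype. Of all probe sets, 20.7% were lower in both genotypes, 18.2% were higher in wild type, and 50.4% passed in at least 1 genotype. Probe set 257322_at read 19.2, 11.7 and 19.0 on mutant tZ arrays, against 27.6, 26.2 and 28.6 on mutant DMSO arrays. The wild type arrays read 9.12, 14.4 and 16.0 with tZ, against 25.5, 22.5 and 29.9 with DMSO. The treatments did not overlap, with log2 changes of -0.50 in the mutant (SE 0.16, limma adjusted p = 0.019) and -0.64 in wild type (SE 0.16, adjusted p = 0.0045). The mutant call was lost without mutant tZ replicate 2 or mutant DMSO replicate 3 (adjusted p up to 0.10, range from 0.0088).

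Probe set 257324_at of nad1 had 21.4, 14.0 and 21.5 on mutant tZ arrays, against 25.3, 42.3 and 35.4 on mutant DMSO arrays. Wild type arrays gave 18.6, 19.4 and 18.3 with tZ, against 27.0, 32.5 and 32.9 with DMSO. It too was lower without overlap, by log2 changes of -0.61 in the mutant (limma adjusted p = 0.0064) and -0.50 in wild type (adjusted p = 0.020). Its wild type call ended on leaving out wild type tZ replicate 3 or wild type DMSO replicate 2 or 3 (adjusted p up to 0.060, range from 0.0086).

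Probe set 257325_at of nad1 went in the opposite direction. It read 18.7, 11.7 and 9.27 on mutant tZ arrays, against 1.38, 7.53 and 8.76 on mutant DMSO arrays, where it did not pass although the treatments did not overlap (log2 change 0.56, limma adjusted p = 0.052). The wild type arrays read 12.8, 8.40 and 15.1 with tZ, against 0.459, 4.88 and 3.73 with DMSO, and passed (log2 change 0.77, SE 0.22, adjusted p = 0.010). All of its DMSO arrays lay below the absent-control maximum, so the size of this rise is not known. The mutant value crossed the threshold with quantile normalization, a common median or a pseudocount of 50, and without mutant tZ replicate 3, wild type DMSO replicate 1 or mutant DMSO replicate 3 (lowest adjusted p over all alternatives 0.027, highest 0.24). Leaving out replicate 1 of wild type DMSO ended the wild type call (adjusted p = 0.051, against a lowest value of 0.0043).

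The remaining nad1 probe sets were 257321_at, 257323_at, 257327_at and 257329_at. Group means of 257321_at were 12.6 in mutant tZ, 13.3 in wild type tZ, 17.3 in mutant DMSO and 16.5 in wild type DMSO, with log2 changes of -0.28 in the mutant (limma adjusted p = 0.13) and -0.19 in wild type (adjusted p = 0.29). Those of 257323_at were 14.9, 11.5, 12.9 and 9.36 in the same order. Both other probe sets had all 4 means below the absent-control maximum. Over the 7 probe sets, log2 changes spanned -0.61 to 0.56 in the mutant and -0.64 to 0.77 in wild type, so 1 gene symbol covered signals that moved in both directions.

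**Figure D3:**
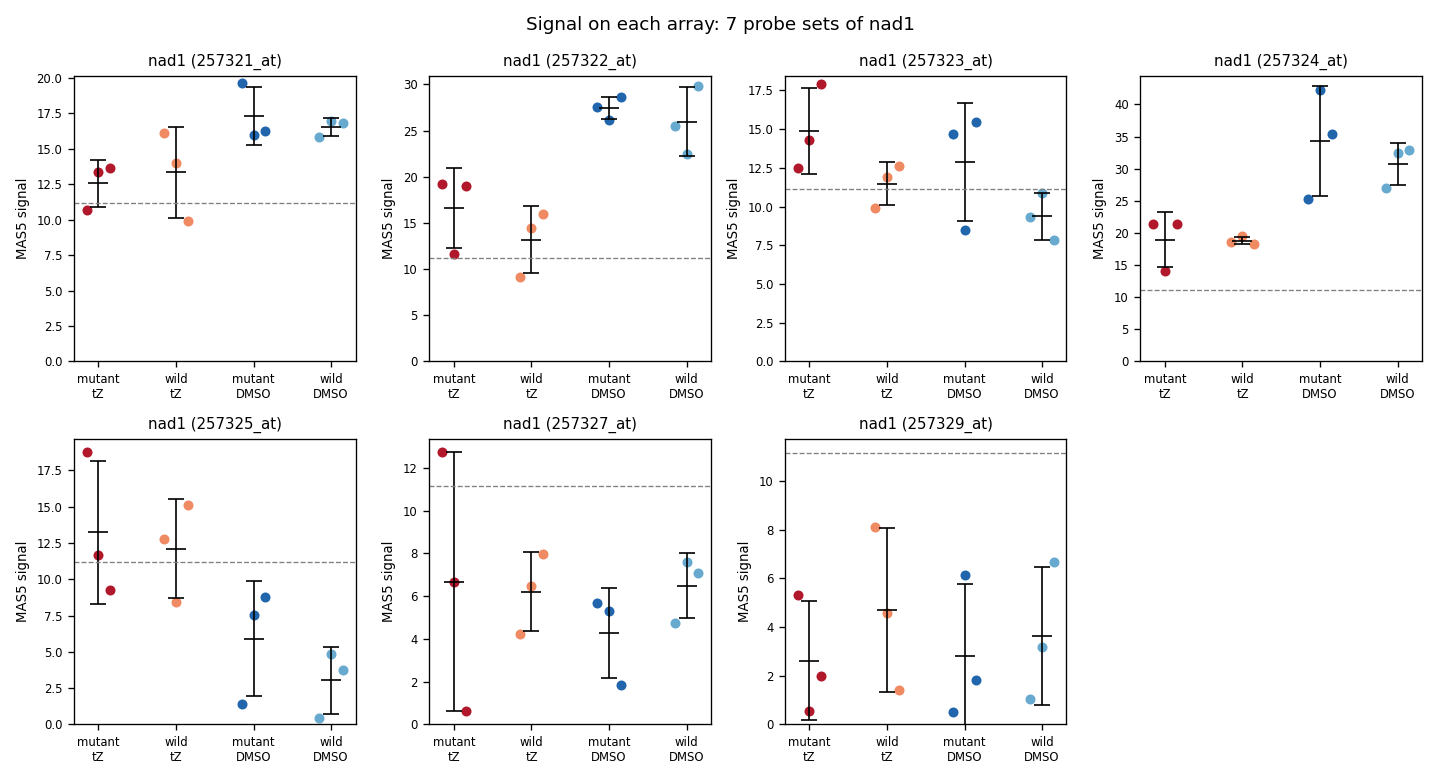
MAS5 signal (linear axis from 0) on each array for the 7 nad1 probe sets. Points are arrays, black marks the mean with SD (n = 3, bars end at 0 where the SD exceeds the mean), and the dashed line is the highest absent-control signal of 11.2. Probe sets 257322_at and 257324_at are lower with tZ, 257325_at is higher, and 257329_at stays under the dashed line on every array.

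Among the other complex I genes, nad7, which encodes a subunit of the peripheral arm, passed in wild type only, at 3.98, 4.66 and 1.13 with tZ, against 8.53, 7.61 and 14.8 with DMSO (log2 change -0.61, SE 0.16, limma adjusted p = 0.0062). The absent-control maximum lay above its 4 group means. In the mutant it had 3.11, 5.77 and 4.77 with tZ, against 7.84, 5.77 and 4.89 with DMSO, and did not pass (adjusted p = 0.50). Signals of nad6 averaged 14.1 ± 4.96 with tZ and 20.3 ± 5.21 with DMSO in the mutant, and 12.3 ± 2.52 and 15.4 ± 3.81 in wild type, without passing. Those of nad9 averaged 17.1 ± 2.58 with tZ and 19.5 ± 2.12 with DMSO in the mutant, and 15.9 ± 1.20 and 20.1 ± 4.39 in wild type (SD, n = 3), again without passing. Over all 17 respiratory probe sets the median change on the log2 scale came to -0.28 in the mutant and -0.19 in wild type, beside -0.066 and -0.075 over all probe sets tested. The array medians of these 17 on the log2(signal + 10) scale were 4.40 to 4.51 in mutant tZ and 4.71 to 4.86 in mutant DMSO. They were 4.39 to 4.50 in wild type tZ and 4.69 to 4.77 in wild type DMSO, so neither genotype's treatments overlapped. Array medians of all probe sets tested were also lower with tZ without overlap in the mutant, but overlapped in wild type. Those of the plastid-encoded genes were lower with tZ without overlap in both genotypes. The lack of overlap is therefore not particular to the respiratory probe sets.

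The 2 genes of complex IV differed in sign. The catalytic subunit gene cox1 read 88.1, 95.3 and 146 on mutant tZ arrays, against 61.1, 54.7 and 46.1 on mutant DMSO arrays. Wild type arrays gave 95.3, 123 and 81.3 with tZ, against 48.9, 59.0 and 48.0 with DMSO. No tZ array fell within the DMSO range, and the signal was 2.03 times as high with tZ in the mutant and 1.92 times as high in wild type. The log2 changes were 0.88 in the mutant (SE 0.17, limma adjusted p = 8.3e-04) and 0.81 in wild type (SE 0.17, adjusted p = 0.0015).

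The gene of the copper-binding subunit, cox2, had 5.76, 11.5 and 5.89 on mutant tZ arrays, against 12.9, 23.7 and 10.2 on mutant DMSO arrays. It passed there with overlapping groups (log2 change -0.51, SE 0.19, limma adjusted p = 0.039), and the call was lost in 6 of 19 alternatives, 4 of them with 1 array left out (adjusted p from 0.014 to 0.19). Those arrays were wild type tZ replicate 3, mutant tZ replicates 1 and 3, and mutant DMSO replicate 2. In wild type it had 11.0, 11.1 and 10.4 with tZ, against 16.1, 17.4 and 19.6 with DMSO. These groups did not overlap, yet the change did not pass (log2 change -0.41, adjusted p = 0.093). It passed with only the 2 groups compared and without mutant DMSO replicate 2 (lowest adjusted p = 0.038). Both tZ means of cox2, 7.72 in the mutant and 10.8 in wild type, lay below the absent-control maximum. The size of its fall is therefore not measured exactly.

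Of the 4 cytochrome c maturation genes, 1 passed in the mutant (25%, against 42.8% of all probe sets) and 0 in wild type (against 43.6%). The haem lyase gene ccb382 (ccmFN1) read 68.6, 83.2 and 73.6 on mutant tZ arrays, against 113, 105 and 109 on mutant DMSO arrays, and passed (log2 change -0.49, SE 0.15, limma adjusted p = 0.019). The call was lost without mutant tZ replicate 1 or mutant DMSO replicate 1 (adjusted p up to 0.069, range from 6.1e-04). In wild type it read 87.5, 72.2 and 77.3 with tZ, against 55.9, 97.6 and 93.9 with DMSO. The tZ arrays lay inside the DMSO range (log2 change -0.025, limma adjusted p = 0.92). Without wild type DMSO replicate 1 the wild type change was -0.25 (limma adjusted p = 0.061). The ccb452 (ccmFC) signal averaged 39.7 ± 3.49 with tZ and 37.9 ± 6.95 with DMSO in the mutant, and 39.1 ± 4.35 and 32.3 ± 0.913 in wild type. It passed in neither, and nor did ccb206 (ccmB), with group means of 13.7 to 17.7, or ccb203 (ccmFN2), with group means of 3.23 to 5.66. The difference in call counts between these genes and the respiratory genes was not tested.

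The orfX gene (mttB) encodes a membrane protein related to TatC of the twin-arginine protein export pathway. Its signal was 35.1, 32.1 and 30.5 on mutant tZ arrays, against 25.6, 24.3 and 32.2 on mutant DMSO arrays, with overlap (log2 change 0.19, SE 0.14, limma adjusted p = 0.29). In wild type it was 43.7, 42.0 and 39.2 with tZ, against 22.5, 32.8 and 33.1 with DMSO, without overlap, and it passed (log2 change 0.40, SE 0.14, adjusted p = 0.028). That call ended on leaving out replicate 1 or 2 of wild type tZ or replicate 1 of wild type DMSO, and with only the 2 groups compared (adjusted p up to 0.12, range from 0.013). The maturase gene matR gave signals of at most 3.44 on any array and did not pass.

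Responses of the 2 genotypes, which share no arrays, had the same sign in 20 of 23 members (87.0%), beside 79.7% of all probe sets. Of the 12 members that passed in at least 1 genotype, 2 were higher in both, 4 were lower in both, 3 passed in the mutant only and 3 in wild type only, and 0 passed in opposite directions. Of all probe sets, 50.4% passed in at least 1 genotype, 15.3% were higher in both, 20.7% lower in both, 6.77% passed in the mutant only, 7.55% in wild type only and 0.0308% in opposite directions. The change in the mutant and that in wild type correlated at r = 0.859 (Spearman's rho 0.822) across the 23 members, beside r = 0.912 across all probe sets. These probe sets are not independent, and both responses run across the same array division. Groups did not overlap between treatments for 10 members in the mutant, against 51.6% of all probe sets, and for 11 in wild type, against 50.4%.

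Whether the tZ response differed by genotype was tested as the interaction, from which any shift common to both genotypes' arrays drops out. None of the 23 members passed (lowest limma adjusted p = 0.68), and 0% of all probe sets did. At an unadjusted p under 0.05 there was 1 member, against 7.03% of all probe sets. The smallest p belonged to nad2, a complex I gene, with a log2 response in the mutant minus that in wild type of -0.83 (SE 0.35, limma adjusted p = 0.68). Group means of nad2 were all under the absent-control maximum, at 3.67 in mutant tZ, 6.56 in wild type tZ, 7.58 in mutant DMSO and 1.91 in wild type DMSO. Its response passed in wild type without wild type tZ replicate 1 (0.42 with all arrays, adjusted p = 0.022 without that one) and in the mutant without mutant tZ replicate 1 (-0.41 with all arrays, adjusted p = 0.033 without it). The next were ccb382, with -0.46 (SE 0.22, adjusted p = 0.72), and nad7, with 0.46 (SE 0.22, adjusted p = 0.75). For cox1 the difference was 0.067, with a 95% confidence interval from -0.46 to 0.60. For nad4 it was -0.25 (-0.56 to 0.065), and for nad4L -0.32 (-0.85 to 0.21), so differences of a size near that of the responses themselves were not resolved.

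Under DMSO, 0 members passed between mutant and wild type by limma, with 0.0132% of all probe sets passing, 0.0044% higher and 0.00879% lower, and 4 members had an unadjusted p under 0.05, against 9.50% of all probe sets. All 4 were higher in the mutant without overlap. For nad4, mutant minus wild type came to 0.41 (SE 0.10, limma adjusted p = 0.22), from the DMSO signals given above. That of ccb382 was 0.40 (SE 0.15, adjusted p = 0.44), and that of the nad5 probe set 257337_at was 0.48 (SE 0.20, adjusted p = 0.49). The fourth was nad2, at 7.13, 6.07 and 9.53 on mutant DMSO arrays, against 1.75, 2.98 and 0.999 on wild type DMSO arrays, all below the absent-control maximum (log2 difference 0.56, adjusted p = 0.50). Groups did not overlap for 4 members, against 12.4% of all probe sets. The median difference over the 17 respiratory probe sets was 0.063, beside -0.0086 over all probe sets. The ubiquitin 5' to 3' ratio on mutant DMSO arrays was 0.222 ± 0.00583, against 0.203 ± 0.00441 on wild type DMSO arrays (SD, n = 3, exact permutation p = 0.10, the smallest possible with 3 against 3), and its part in these differences was not tested.

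Under tZ, again 0 members passed by limma, with 0.0352% of all probe sets passing, 0.0044% higher and 0.0308% lower, and 0 had an unadjusted p under 0.05, against 5.56% of all probe sets. The smallest p was that of orfX, whose 3 mutant arrays (35.1, 32.1 and 30.5) lay below the 3 wild type arrays (43.7, 42.0 and 39.2), giving a log2 value for mutant minus wild type of -0.28 (SE 0.14, limma adjusted p = 0.91). It was the 1 member without overlap, against 12.5% of all probe sets. The GAPDH 5' to 3' ratio on mutant tZ arrays was 0.719 ± 0.0243, against 0.817 ± 0.0264 on wild type tZ arrays, without overlap (SD, n = 3, exact permutation p = 0.10), and its part in the genotype values was not tested. The next were nad4L, with -0.27 (SE 0.17, adjusted p = 0.97), and nad4, with 0.16 (SE 0.10, adjusted p = 0.97). The median over the 17 respiratory probe sets was 0.062, and it was -0.061 without mutant tZ replicate 1, on which 5S rRNA read 104, against 32.5 and 25.0 on the other mutant tZ arrays.

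**Figure D4:**
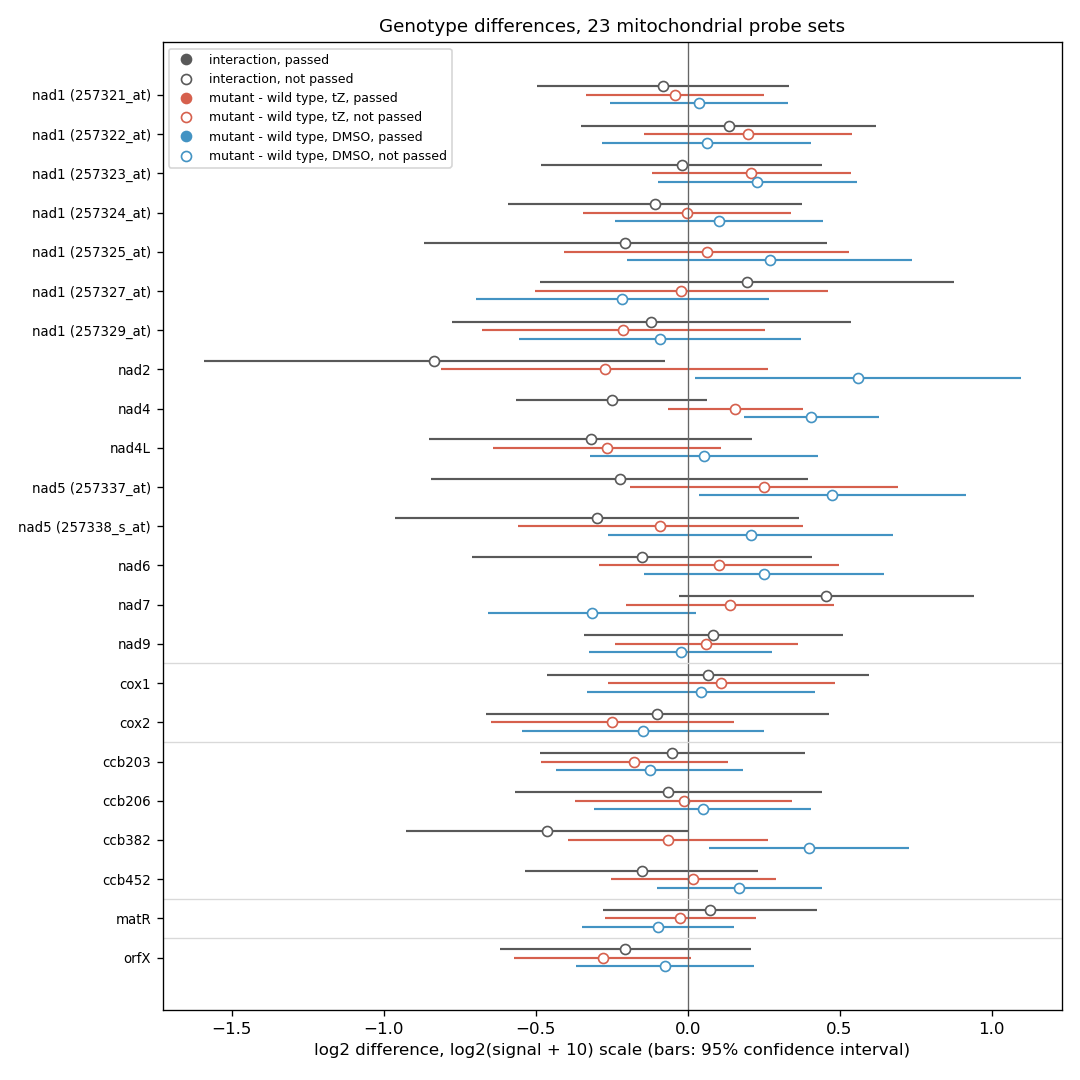
Genotype differences for each of the 23 mitochondrial probe sets (rows) on the log2(signal + 10) scale with 95% confidence intervals from limma: the interaction (grey, top), mutant minus wild type under tZ (red, middle) and under DMSO (blue, bottom). All points are open, since 0 of 23 passed at an adjusted p of 0.05 in any of the 3. The nad2 probe set has the widest intervals, and its interaction lies at -0.83.

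Nuclear genes of the same machinery were read from lists. Of 39 listed nuclear genes of the respiratory chain, 16 were measured by name, and in each genotype 8 were higher and 6 lower with tZ (87.5%, beside 42.8% of all probe sets in the mutant and 43.6% in wild type), with a median log2 change of 0.25 in the mutant and 0.19 in wild type. Each listed gene was read by its brightest probe set. Without the dimmest 40% of all probe sets, 68.6% of those left passed in the mutant and 69.0% in wild type. The part of signal level in the share of 87.5% was not tested. FRO1, a complex I subunit, averaged 927 ± 35.7 with tZ and 277 ± 11.7 with DMSO in the mutant (log2 change 1.71, SE 0.06, limma adjusted p = 3.9e-10), and 887 ± 43.6 and 265 ± 7.38 in wild type. AT5G47030, a subunit of the mitochondrial ATP synthase, averaged 868 ± 29.7 with tZ and 172 ± 2.10 with DMSO in the mutant (log2 change 2.27), and 895 ± 30.0 and 184 ± 51.4 in wild type (2.25). AT4G02580, another complex I subunit, rose by 1.80 in the mutant and 1.97 in wild type, and AT1G80230, a subunit of complex IV, by 1.65 and 1.79 on the log2 scale. These genes were named for their smallest p, and all of them rose. Over the 16 measured genes, log2 changes ran from -0.91 to 2.27 in the mutant and from -1.05 to 2.25 in wild type.

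Of 12 listed genes of alternative respiration, which bypass the proton-pumping complexes, 5 were measured, and in each genotype 1 was higher and 1 lower with tZ (40%, near the background). NDC1, an alternative NAD(P)H dehydrogenase gene, rose with tZ by 0.30 in the mutant (limma adjusted p = 0.019) and 0.29 in wild type (adjusted p = 0.023). NDB1, another of these dehydrogenase genes, fell in the mutant, at 84.5 ± 9.46 with tZ and 115 ± 12.4 with DMSO. NDB3 fell in wild type, at 4.92 ± 3.43 with tZ and 15.4 ± 3.89 with DMSO. Its tZ mean lay below the absent-control maximum, so the size of this fall is not measured exactly. Of 23 listed nuclear genes for the upkeep of mitochondrial RNA and DNA, 6 were measured. In each genotype 1 passed (16.7%, against 42.8% of all probe sets in the mutant and 43.6% in wild type). OTP43, whose product is needed for trans-splicing of a nad1 intron, fell in the mutant (log2 change -0.46, limma adjusted p = 0.019), and the single-stranded DNA binding protein gene OSB1 rose in wild type (0.51, adjusted p = 0.020). None of these nuclear genes passed between genotypes.

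Plastid-encoded genes and chromosome 2 loci also held calls in both directions. Of 69 probe sets of plastid-encoded genes, 10 were higher and 39 lower with tZ in the mutant, with a median log2 change of -0.40, and 16 were higher and 33 lower in wild type, with a median of -0.28. In each genotype 71.0% of them passed, against 42.8% of all probe sets in the mutant and 43.6% in wild type. Of 67 probe sets for chromosome 2 loci whose identifiers start with AT2G07, a stretch that includes the nuclear copy of mitochondrial DNA, 4 were higher and 6 lower in the mutant and 4 higher and 8 lower in wild type. These shares, 14.9% in the mutant and 17.9% in wild type, lay below those of all probe sets. The 6 probe sets that named a gene of the rule with another gene had 0 higher and 2 lower in the mutant, and 1 higher and 1 lower in wild type (33.3% in each). No difference between these sets and the members was tested. The plot of shares by set places the members beside them.

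**Figure D5:**
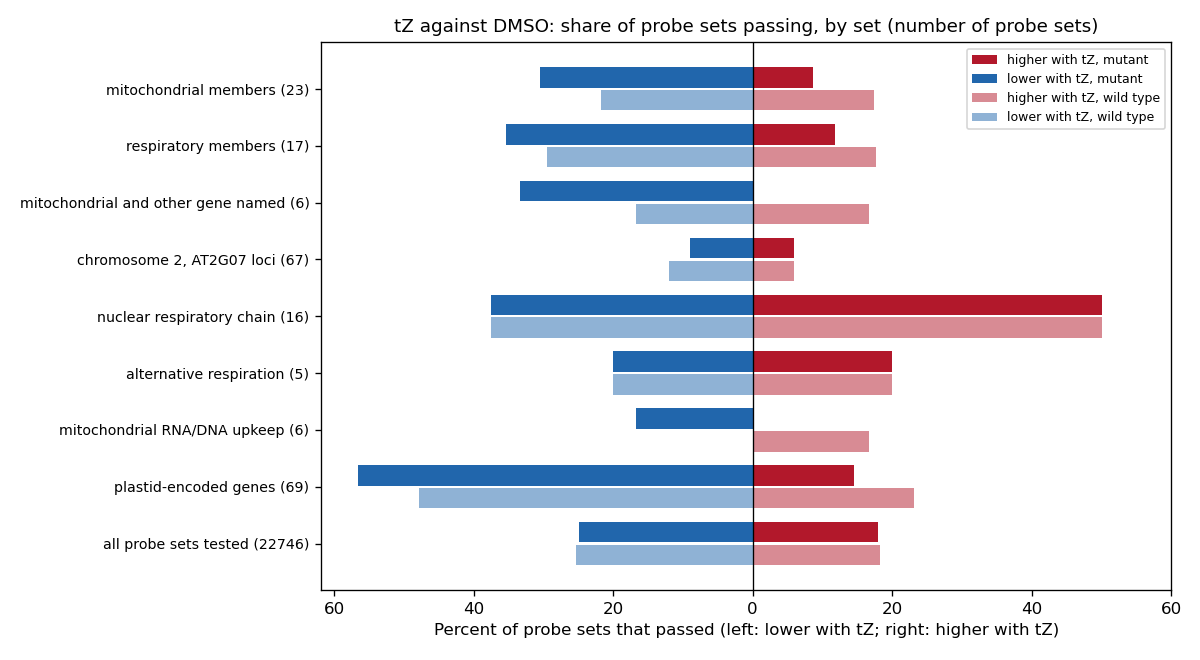
Share of probe sets (percent) that passed at an adjusted p of 0.05 for tZ against DMSO, higher to the right and lower to the left, in the mutant (dark, upper) and wild type (light, lower), for the mitochondrial members, comparison sets and all probe sets tested, with the number of probe sets in brackets. The 23 members reach 8.70% higher and 30.4% lower in the mutant and 17.4% higher and 21.7% lower in wild type, and the 16 nuclear respiratory genes reach 50% higher and 37.5% lower in both.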

How the data were processed

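The authors deposited linear MAS5 signal intensity for 22810 probe sets on each of 12 arrays, and MAS5 is named in the submitters' processing notes with no version. The 64 control probe sets were left out, which left 22746. Of these 13513 named 1 gene, 503 several and 8730 none in the ATH1 annotation of 2016. RefSeq's TAIR10.1 table gave names. The test was limma 3.58.1 on log2(signal + 10) (R 4.3.3), with 1 mean per group, moderated variances with a trend, 5 two-sided contrasts over all 12 arrays and Benjamini-Hochberg adjustment over all 22746 probe sets at 0.05. Adding 10 makes changes of dim probe sets look smaller. The fit was tested on simulated data. The number of arrays limits the precision. Members and lists were chosen with earlier results of these data known. Named singly were the 2 brightest members of each class, the 3 largest rises and falls that passed without overlap or the 3 smallest p, all probe sets of nad1 and nad5, and up to 4 passing genes of each list. The nad7 gene in wild type and the nad6 and nad9 values were added after their values were seen. Same-numbered arrays did not deviate together over all probe sets (r from -0.085 to 0.069), and the main fit paired no samples. With 3 arrays per group this check cannot tell whether the numbers mark a shared culture or day. The alternatives tried were quantile normalization, a common median, pseudocounts of 1 and 50, no dim probe sets, a replicate block, no variance trend, only the groups compared, plain _at members, members above the absent-control maximum (chosen after seeing the data), and each array left out. Figures used matplotlib 3.10.9 and tables pandas 2.3.3.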

Additional observations from a re-analysis of the deposited data

How the results depend on the processing

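The count of members that passed for tZ against DMSO was 9 in each genotype. With 1 array left out it ran from 7 to 10 in the mutant and from 7 to 10 in wild type, and with the replicate block it was 9 in each and changed no call. Among the 8 members left without the dimmest 40% of probe sets, 6 passed in each genotype, against 68.6% of the probe sets left in the mutant and 69.0% in wild type. The interaction and both genotype comparisons kept 0 members under all alternatives run. No member that passed changed direction. The median change of the 17 respiratory probe sets with tZ moved more with the processing. In the mutant (-0.28) it was -0.43 with a pseudocount of 1, -0.10 with 50, -0.21 with quantile normalization and -0.50 over the 5 probe sets left without the dimmest 40%. In wild type (-0.19) it was -0.30, -0.072, -0.12 and -0.50 in the same order. The median interaction (-0.11) was -0.033 with a pseudocount of 50, and the change of orfX in wild type (0.40) was 0.21. The cause was not tested beyond the settings' own construction. With 1 array left out, the respiratory median ran from -0.29 to -0.21 in the mutant, from -0.25 to -0.10 in wild type, from -0.22 to -0.056 in the interaction, from 0.032 to 0.17 between genotypes under DMSO and from -0.061 to 0.080 under tZ. The value of orfX then ran from 0.13 to 0.28 in the mutant, 0.26 to 0.47 in wild type, -0.28 to -0.071 in the interaction, -0.21 to -0.0042 under DMSO and -0.32 to -0.24 under tZ. Without mutant tZ replicate 1, 7 members passed in the mutant, 2 higher and 5 lower. Signal over background limits 12 of 23 members, which had at least 1 group mean at or below the absent-control maximum.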
